A study of Mus musculus with 2 samples.

Results

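The RIKEN mouse cDNA project named each clone by the library it came from, and the first 4 characters of a clone name are the code of that library. Clones with the codes 4631, 4632, 4732 and 4733 were taken here as clones from skin of newborn mice. That link between code and tissue comes from the RIKEN naming and is not recorded in the array files. The array carried 158 probes for such clones, each for a different clone and each printed as a single spot, among 97836 non-control probes in all and 15675 RIKEN clone probes. The code 4732 gave 98 of them, 4632 gave 31, 4631 gave 25 and 4733 gave 4.

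Newborn skin holds keratinocytes of the epidermis, which divide at the base, stop dividing as they move outward and end as a cornified layer sealed with lipid, together with growing hair follicles, sebaceous glands, melanocytes and dermal fibroblasts. The mammary gland is itself an appendage of the skin, its teat and overlying dermis lie against true epidermis, and a dissected gland can carry some of it. A clone from a skin library is a transcript that was cloned from skin. It need not be specific to skin, and many such clones belong to genes that most tissues use.

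Both samples were female mouse mammary gland, 1 array per genotype, measured as total RNA labelled with Cy3. The control was miR-34a fl/fl, with both alleles floxed and no Cre named, and the knockout, miR-34a -/-, came from a cross of such mice to a Cre line described as specific to the mammary gland. Floxed alleles were therefore shared by both groups, and cells of the gland that do not express the Cre would keep miR-34a. The labels give the Cre line by a stock number and name no promoter, and they give no age, no number of animals per array and no account of how the gland was parted from skin. Replicates were lacking, since each genotype had 1 array. Differences are therefore descriptions of these glands, without tests or p-values. How precise any value is depends on having 2 arrays only. Between 75.4% and 77.3% of the 175906 non-control spots of an array were well above background, and 0 spots were saturated. No probe matched Mir34a through the gene table (0 probes), so the target of the deletion gave no check of the labels.

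Of the 158 members 13 matched a gene in the RefSeq table, 10 of them protein-coding and 3 lncRNA genes. The other members have no gene name here and are given by their clone names. The lncRNA genes are those where the clone stands for a transcript of its own, and 2 of the 3 have an entry in the RefSeq promoter table. Promoter entries were found for 10 of the 13 genes. Those of these lncRNA genes are shown, since the clone names the transcript itself and both were measured in both glands. The windows run from 250 bases before to 50 bases after the start, in build GRCm38.p6, 5′ to 3′ on the strand of the gene. Capitals mark a match to CCAAT. The motifs searched on both strands were TATAAA, the core of the TATA box, CCAAT, the site of NF-Y, TGANTCA, the site of AP-1, which is active in keratinocytes, and GGGCGG, the GC box of Sp1. The promoter of 4631405J19Rik lies at chr2:93029098-93029397 on the plus strand, and that of 4732490B19Rik at chr11:113209620-113209919 on the minus strand.

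4631405J19Rik: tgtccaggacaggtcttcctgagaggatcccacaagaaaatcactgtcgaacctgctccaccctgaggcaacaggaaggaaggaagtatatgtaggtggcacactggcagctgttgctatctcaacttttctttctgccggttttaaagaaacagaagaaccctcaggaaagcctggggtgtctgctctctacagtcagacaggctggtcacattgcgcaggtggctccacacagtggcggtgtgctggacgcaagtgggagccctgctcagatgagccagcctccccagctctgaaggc

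4732490B19Rik: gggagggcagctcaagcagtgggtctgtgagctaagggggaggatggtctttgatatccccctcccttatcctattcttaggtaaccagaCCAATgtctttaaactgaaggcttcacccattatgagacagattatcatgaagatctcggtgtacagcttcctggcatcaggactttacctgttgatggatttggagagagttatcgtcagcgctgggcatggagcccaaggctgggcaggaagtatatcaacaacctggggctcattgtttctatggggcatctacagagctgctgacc

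Overlaps between motifs do not arise here, since the window of 4631405J19Rik held 0 matches to any of the 4, and that of 4732490B19Rik held 1 match to CCAAT. Among the 32851 promoters of 300 bases that RefSeq's table holds, CCAAT was found in 37.4%, the TATA box core in 13.6%, the AP-1 site in 7.81% and the GC box in 35.7%. These are matches of letters only. G and C made up 54.7% of the window of 4631405J19Rik.

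The first question was whether the skin library clones were detected equally in both glands, as a check on the share of skin in each. Of the 158 members 157 had a usable spot on both arrays. The remaining one, which matches Vps13b, a large lipid-transfer protein of the secretory pathway, had a spot marked as an outlier and was left out. Well above background were 137 of the 157 members (87.3%) in the control gland and 132 (84.1%) in the knockout gland. Both glands showed 129 of them, the control gland alone 8, the knockout gland alone 3, and 17 were not well above background in either. The share seen in the control only was 5.10%, against 2.52% of all probes and 3.84% of all RIKEN probes, and the share seen in the knockout only was 1.91%, against 1.08% and 1.88%.

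Detection depends on signal and on the number of spots, so the members were also set against other RIKEN probes with 1 spot per array, weighted over 10 bins of signal to the members' own signal. In those 4.23% were seen in the control only, 2.44% in the knockout only, 11.1% in neither and 82.2% in both. The members stood at 5.10%, 1.91%, 10.8% and 82.2%. Of the 8 members seen in the control only, 3 had the code 4632 and 5 the code 4732. Of the 3 seen in the knockout only, 1 had the code 4632 and 2 the code 4732. All 4 members of code 4733 were above background in both glands.

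Members seen on 1 array only mostly had low signals. The dimmer gland gives no level for such a probe, only a bound, for which the bright level was set against the lowest level of any probe above background on the other array, or against the dim level where that was higher. Clone 4732415C09 had a processed signal of 78.0 ± 8.39 in the control gland and 9.37 ± 2.94 in the knockout gland, where the error is the scanner software's own error of a spot. Its bound, 4.32-fold or more below the control, was the largest of the 10 bounds of members. Clone 4632406I19 followed at 59.1 ± 6.58 against 5.10 ± 2.75, a bound of 3.28-fold. Clone 4732462G02 was at 40.5 ± 5.12 and 9.11 ± 2.90, a bound of 2.24-fold. These 3 were the members of the control side with a bound of 2-fold or more. With background corrected by normexp, a model of signal plus noise, none of the 3 bounds reached 2-fold: their log2 values were -0.62, -0.48 and -0.17. Normexp was run with an offset of 50 added to the signals, which draws differences of dim probes toward 0. For signals as low as these the offset largely sets that outcome, so it is no separate check on the bounds. The other control-side members had bounds of at most 1.44-fold, and 4632404M16, at 15.4 ± 3.23 and 2.63 ± 2.65, had no bound, since its bright level lay below the floor of the other array.

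One of the control-side clones has a gene. 4732440D04Rik, a lncRNA gene that overlaps Rb1cc1, an initiator of autophagy, had a signal of 25.1 ± 4.16 in the control gland and 6.12 ± 2.96 in the knockout gland, a bound of 1.39-fold. On the knockout side, 4732461J20 had a signal of 22.7 ± 3.77 against 6.09 ± 3.70 in the control gland, a bound of 2.15-fold upward, or a log2 bound of 0.55 with normexp. The other members of that side, 4632413D16 and 4732419E09, had bounds of 1.71-fold and 1.54-fold. On the bright side the signals of the 11 members ran from 15.4 to 78.0. The highest, 4732415C09 and 4632406I19, lay above 50.1% and 44.2% of RIKEN probes in the control gland.

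The next question was whether the members measured in both glands moved together. Their differences were centred near 0 and spread to both sides. Members measured in both glands covered most of the range of the arrays, with levels from -4.51 to 5.20 in the control gland and from -3.99 to 5.79 in the knockout gland, on a scale where 0 is the 75th percentile of the array. Above that percentile lay 31 members in each gland. After each array was scaled to its 75th percentile, the median knockout minus control difference of the 129 members was 0.04 on the log2 scale, with quartiles of -0.41 and 0.38. The other 11218 RIKEN probes had a median of 0.05 and quartiles of -0.31 and 0.37, and all 69405 probes had a median of 0.10. Above 0 lay 72 of the 129 members (55.8%), against 53.5% of the other RIKEN probes. Within 1.5-fold of equal lay 91 members (70.5%), against 73.6% of the other RIKEN probes.

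Matched on signal, the other RIKEN probes had a median of 0.05, so the members' median differed from theirs by -0.01. With the comparison held to RIKEN probes with 1 spot the difference was -0.02. For scale, in 3482 other RIKEN probes with 2 spots, the differences of the 2 spots of a probe lay 0.19 log2 units apart at the median and 0.54 at the 90th percentile. The scanner software's error of a member's difference was 0.21 log2 units at the median. The software's error is an estimate given for a single spot. In bright members it rose in proportion to signal, as 76.8 at a signal of 767.4 and 1209.6 at 12095.8. Neither this error nor the gap between spots covers animals, dissection, labelling or hybridisation. In these bulk samples, fewer cells of a type and less RNA per cell cannot be told apart.

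Members 2-fold or more apart were counted, with no test behind the limit. On that rule 9 of the 129 members (6.98%) were lower in the knockout and 5 (3.88%) were higher. The background was 4.54% lower and 4.45% higher over all probes, and 4.65% lower and 4.22% higher over all RIKEN probes. Among other RIKEN probes of like signal it was 4.49% lower and 4.21% higher. The share called higher was thus near the background. The share called lower was above it, a gap of a few clones in a set of 129. The members just inside the limit on the low side were 2.01-fold to 2.27-fold lower, and those just outside had log2 differences between -0.97 and -0.77, so the count turns on small differences. On the high side all 5 called members lay between 1.11 and 1.70, and the next 5 between 0.94 and 0.78. Among other RIKEN probes with 2 spots, 163 had a first spot at least 2-fold lower and in 63.2% of these the second spot was too. Of 133 with a first spot at least 2-fold higher it was 62.4%. Every member had a single spot, so none of its calls has a second spot beside it.

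The largest difference of any member was that of 4732497A20. Its signal was 466.0 ± 46.7 in the control gland and 28.4 ± 4.14 in the knockout gland, a difference of -3.59 on the log2 scale after scaling, from a level of 0.50 to one of -3.09. Among the other RIKEN probes 6 of 11218 (0.0535%) were as low or lower. The clone was bright in the control gland, above 87.6% of RIKEN probes, and in the lower part of them in the knockout gland, above 36.1%. With normexp its log2 difference was -2.16 and with no background correction -2.61. The cause of these moves was not tested. No gene is paired with this clone in the sources used here.

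The next 3 decreases were of similar size. Clone 4632401L01 had a signal of 296.3 ± 29.8 in the control gland and 63.3 ± 6.90 in the knockout gland, 3.43-fold lower. For 4732477F15 the signals were 181.0 ± 18.4 and 40.9 ± 4.94, 3.25-fold lower. Clone 4732422I02, the brightest of the 9, went from 799.1 ± 80.0 to 187.6 ± 19.0, 3.12-fold lower. It was the brightest of the 9 in the knockout gland too, and it was at -1.33 with normexp against -1.64 in the main setting. With normexp 4732477F15 was at -0.98, under 2-fold, and 4632401L01 at -1.04, which moved both by over 1.5 times in fold.

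The other 5 decreases lay near the limit: 4632426C10 was 2.27-fold lower, 4631416K16 2.23-fold, 4732404M06 2.08-fold, 4632422H02 2.03-fold and 4631436O15 2.01-fold. Their control signals ran from 84.7 to 239.4 and their knockout signals from 30.9 to 86.5. With normexp and with no background correction all 5 were under 2-fold, in the same direction, with normexp values from -0.57 to -0.32.

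The increases were found mainly among bright members. Clone 4732433A03 had a signal of 678.0 ± 67.9 in the control gland and 1612.4 ± 161.3 in the knockout gland, 3.24-fold higher. Clone 4631419H05 went from 1018.3 ± 101.9 to 2123.6 ± 212.4, 2.84-fold higher. Both stayed above 2-fold in all 8 other settings of scaling and background. Some of these settings repeat the main value of the increased clones: scaling on the median of detected probes, the authors' values and outlier spots kept. Clone 4732474G23 was at 710.2 ± 71.1 and 1262.8 ± 126.3, 2.43-fold higher, and at a log2 difference of 0.92 with the arrays scaled on the spike-in transcripts instead. Clone 4732458B12, at 1428.5 ± 142.9 and 2262.2 ± 226.2, was 2.16-fold higher and was under 2-fold in 4 of the 8 settings. Of the settings that do not repeat the main value, only no background correction kept it past 2-fold, at 1.01. The fifth, 4732494P08, was dim, at 18.9 ± 3.66 and 37.9 ± 4.69, and its 2.74-fold difference was at 0.74 with normexp.

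Split at the members' median level, the upper 64 members held 4 of the increases and 3 of the decreases, and the lower 65 held 1 increase and 6 decreases. Other RIKEN probes with 1 spot had 4.12% higher and 3.96% lower above that level, and 4.84% higher and 5.58% lower below it. In the brightest of the 10 bins of signal 4 of 16 members were at least 2-fold higher and 0 lower, where the other RIKEN probes of that bin had 4.10% and 2.41%. The member median in that bin was 0.27, and in the fourth bin, with 21 members, it was -0.32, against 0.14 and 0.05 for the other probes. The split at the median level was chosen after the values were seen.

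The brightest member in both glands was 4631409N24, with signals of 12095.8 ± 1209.6 and 13329.2 ± 1332.9, above 99.9% of RIKEN probes on either array. Its difference was 0.59. In the control gland 4732442J12, 4732458B12, 4632401N01, 4732401I11 and 4732430G17 followed, and in the knockout gland 4732458B12, 4631419H05, 4732433A03, 4732474G23 and 4732401I11. Of the bright members that were not called, 4732442J12 (-0.55), 4632401N01 (-0.57) and 4732430G17 (-0.60) lay below 0 and 4732401I11 (0.28) above it. A ranking on the control level favours decreases and a ranking on the knockout level favours increases. The 2 directions among these clones therefore follow in part from how they were chosen. Ranked by mean level, the brightest bin had 4 of 16 members at least 2-fold higher and 0 lower.

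The 3 larger library codes had medians near 0, and the smallest lay above the other codes. The median difference was 0.07 for the 22 measured members of code 4631, 0.03 for the 25 of code 4632 and 0.02 for the 78 of code 4732. The 4 members of code 4733 lay at 0.22, 0.33, 0.78 and 0.82, with a median of 0.55, and none reached 2-fold. The 67 other codes with at least 50 measured probes had medians from -0.10 to 0.23, and 33 of them had a median below that of the pooled members. The share called lower was below the members' 6.98% in 57 of those 67 codes. The share called higher was below the members' 3.88% in 33 of the 67. By the direction of calls the code 4632 had 3 lower and 0 higher, 4631 had 2 and 1, and 4732 had 4 and 4. The neonatal adipose code B430, with 56 measured probes, had 10 higher (17.9%) and 2 lower, and the aorta and vein code A530 had 18 higher (8.18%) and 7 lower of 220. The tongue codes, from another tissue with a cornified epithelium, had 2 of 48 each way. The differences between these codes were not tested.

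Members with a known gene lay mostly above 0, by small amounts. Of the 13, 10 were measured in both glands, with a median of 0.21, and 0 were at least 2-fold apart. Over all probes 8.99% were that far apart, so 0 of 10 is not far from the background. Above 0 lay 8 of the 10 (80.0%), against 55.8% of all measured members. Spag9, a scaffold of JNK signalling, had signals of 330.6 ± 33.2 and 415.1 ± 41.6 and a log2 difference of 0.78, the largest of the 10. On the same scale Ttll4, a tubulin-modifying ligase, was at 0.50, and Kansl3, a subunit of a chromatin acetylation complex, at 0.38. Ncapd3, a subunit of condensin II, which folds chromosomes for division, was at 0.22. The mitochondrial ribosome protein Mrpl38 was at 0.22, the ubiquitin ligase Rnf220 at 0.20, and Os9, which sorts misfolded proteins of the endoplasmic reticulum, at 0.02. All of these lay within 1.71-fold of equal. The loci of Spag9, Kansl3, Rnf220 and Os9 overlap other annotated genes, and which transcript the probe reads is not given in the sources used here.

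Where another probe read the same gene it served as a check. Dennd1b, an exchange factor for Rab35, was at -0.13 at the member and at 0.37 at a clone of another code. Rnf220 was at 0.20 at the member and at -0.23 at another clone. In both cases the signs were opposite and both values were small. Plb1, a phospholipase also found in epidermis, was not well above background in either gland, at the member or at a clone from another library.

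The nearest protein-coding genes to the lncRNA 4732490B19Rik are Sox9 on 1 side and Slc39a11 on the other. Sox9 is a factor of hair follicle stem cells that is also active in mammary epithelium. The signals of 4732490B19Rik were 280.3 ± 28.2 in the control gland and 174.8 ± 17.7 in the knockout gland, a difference of -0.23 after scaling. Of the 13 members with a gene, whose place could be looked up, it is the 1 that is in, overlaps or lies next to a gene of the 14 marker lists. Next here includes the nearest protein-coding gene on either side, at any distance and past any non-coding genes between. The lncRNA 4631405J19Rik, which overlaps Prdm11, had signals of 100.5 ± 10.5 and 79.1 ± 8.34 and a difference of 0.10. The 2 transcripts whose promoters are shown above thus differed by less than the spread between spots at the 90th percentile.

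Clone names of these codes are synonyms of 21 genes that were read by 23 probes that are not members, Dennd1b, Rnf220 and Plb1 among them. Of these 21 probes were measured in both glands, with a median of -0.16 and 8 of them above 0. One lay past 2-fold on the low side, that of Tmem132c, a membrane protein, which was 8.84-fold lower as the mean of 2 spots. One lay past it on the high side, 1 of 2 probes of the lncRNA gene 4732471J01Rik, at 1.55, while its other probe was at 0.58. Over all probes 4.54% were lower and 4.45% higher by that limit, so 1 of 21 each way is near the background. The lncRNA genes 4632404H12Rik (-0.66), 4732491K20Rik (-0.19) and Brip1os (-0.11) lay below 0. This set was chosen after the data were opened.

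Markers of skin proper could be read at a single gene. Of the 99 genes of the keratinocyte, hair follicle, sebaceous gland and melanocyte lists 1 had a named probe, Abca12, the lipid transporter of the outer epidermis, read by a RIKEN clone of another code. It was above background in the control gland only, at a level of -2.84 against -5.61, a bound of 2.55-fold below the control. This rests on 1 spot of low signal, and the bound was not computed under other settings. Of the members seen in the control only, the 3 with bounds of 2-fold or more all had bounds under 2-fold with normexp. The offset of 50 used with normexp largely sets that outcome for signals as dim as theirs. It therefore cannot decide whether the Abca12 bound would hold. Over all 14 lists 3 of 236 genes had a named probe. The others were Pde3b of adipocytes, at a level of -2.27 in the control and 0.32 in the knockout, and Esr1 of luminal epithelium, not well above background in either gland. The labelled tissue could therefore not be checked on its defining markers, and no summed marker level could be formed. A share of skin that differs between the glands was not tested on marker genes.

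The scaling moved the members and the other RIKEN probes together. Under the 8 other settings of scaling and background the member median ran from -0.32 to 0.12, and in each it lay within 0.01 of the median of the other RIKEN probes. Scaling on the median of detected probes, on the spike-ins or as in the authors' values shifts each array by 1 constant. Such settings cannot change that gap, so only the others bear on it. Scaling on the spike-ins moved every difference by -0.36 and left all probes with a median of -0.25. The counts of calls did depend on the setting: on the spike-in scale 3 members (2.33%) were higher and 14 (10.9%) lower. Of the other RIKEN probes 1.74% were higher and 11.1% lower on that scale, so the members' lower calls were near the background there. With normexp 3 members were higher and 3 lower (2.33% each way), against 1.39% and 1.40% of the other RIKEN probes.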

How the data were processed

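The deposited intensity values are scanner output of Agilent Feature Extraction (11.5.1.1 per the file headers; the submitters' processing notes give 10.7), background-subtracted and not scaled between arrays. The array design names build mm9, so coordinates of the gene table (GRCm38.p6) were not joined to the array's. They gave the printed promoters and which genes overlap or neighbour each other. In the table of log2 values deposited by the authors, 100% of probes lie within 0.0001 of the log2 processed signal less 1 constant per array (control 8.40, knockout 7.95), and column medians are -1.94 and -1.95.

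Control spots and outlier spots (0.893% and 0.430%) were left out, spots of the same probe were averaged as log2, and each array's 75th percentile over 97373 probes was subtracted (8.36 for the control, 7.92 for the knockout). Differences are knockout minus control. Measured means well above background at each usable spot. The scanner software's deposited marks gave this call. Named were the members at least 2-fold apart or seen on 1 array only, the 6 brightest members of each array, and members with a gene. Of 97836 probes 5914 matched 1 gene. Members and lists were chosen with earlier results of these data known. Normexp (offset 50, limma 3.58.1 in R 4.3.3) used median spot signals. Other steps ran in pandas 2.3.3, numpy 2.4.6 and statsmodels 0.14.6 under python 3.11.15. Of these, the calls were run on simulated data, and the matched median was tested on other RIKEN probes given a known shift. For the bounds the only check was that none exceeded the difference itself, which holds by construction.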

Additional observations from a re-analysis of the deposited data

How the results depend on the processing

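No paired analysis was possible because each genotype has 1 array. The difference between the member median and that of other RIKEN probes of like signal stayed between -0.08 and 0.17 in 24 alternatives. It moved by more than the spot SD of 0.13 in 1 of them, the 8 members with a protein-coding gene, where it was 0.17 and their median 0.22. Alternatives that shift each array by 1 constant cannot move this difference. The member median was -0.32 with the spike-ins set equal. The counts of members at least 2-fold higher and lower, 5 and 9 in the main setting, were 3 and 14 with the spike-ins set equal and 3 and 3 with normexp. They were 9 and 16 without the filter on dim probes, 19 and 19 at 1.5-fold, 0 and 1 at 4-fold, and 1 and 5 without clone code 4732. Without the filter 5.73% of members were higher and 10.2% lower, against 6.94% and 6.24% of all probes. At 1.5-fold it was 14.7% each way, against 14.9% and 10.9% of all probes. At 4-fold it was 0% and 0.775%, against 0.386% and 1.02%. All probes had 1.82% and 9.61% on the spike-in scale, and 1.89% and 2.23% with normexp. Other RIKEN probes moved too: 11.1% were lower on the spike-in scale, 1.40% with normexp and 7.10% without the filter, against 4.63% in the main setting. With no background correction 4 members were higher and 4 lower (3.1% each way), against 2.11% and 1.77% of other RIKEN probes. With both signals above the median of detected probes, 4 of 51 members were higher (7.84%) and 1 lower (1.96%). There the other RIKEN probes had 2.76% and 2.71%, and all probes 4.12% and 2.99%. The members' median against probes of like signal was 0.11 in that setting. Without clone code 4732 there were 51 members on both arrays, 3 seen in the control alone and 1 in the knockout alone, and without clone code 4632 5 were seen in the control alone. Leaving out a code leaves fewer members. Code 4732 held 78 of the 129 measured members, 4 of the 5 higher calls and 4 of the 9 lower ones. Its calls were 5.13% each way, against 4.45% higher and 4.54% lower over all probes. Normexp and no background correction draw the differences of dim probes toward 0, which lowers such counts. Other causes of these moves were not tested. No value changed sign among the 14 called members in 8 settings, some of which repeat the main values to within rounding. The comparison with RIKEN probes of 1 spot and the settings for single members were added after the data were seen. Signals near background and single spots limit the dim members.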
